A study of Mus musculus with 2 samples.

Results

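*Myb*, *Mllt3*, *Mecom*, *Meis1*, *Hhex* and *Zbtb16* are 6 regulators of blood stem and progenitor cells. They were taken by name, with earlier results of these data known, so that how often they differ is a description and not independent support. All 6 have a column among the 29453 genes of the deposited spliced and unspliced count tables. They were read in the 2134 tdTom+ and 1853 tdTom- blood and endothelial cells, out of 8981 and 9252 deposited cells. The study examined why RNA velocity, which infers direction from spliced and unspliced counts, ran backwards along red cell maturation. It traced this to genes whose transcription steps up midway. It then asked how loss of the erythroid transcription factor Gata1 alters these genes and blood formation in the early mouse embryo. For this it used chimeric embryos in which mutant and wildtype cells develop side by side. The tdTom+ fraction comes from 1 clone of male embryonic stem cells that carry a constitutive tdTomato reporter at ROSA26 and a frameshift deletion of 38 bases in exon 4 of *Gata1*, which the sample labels write as Gata1-/-. These cells were injected into wildtype C57BL/6 blastocysts. The tdTom- fraction consists of the wildtype host cells of the same 6 whole embryos, which were pooled before sorting. The age is given as E8.5 for both in the sample titles and the study's text, although the age field of the tdTom- sample reads E8.6. Each fraction gave 1 library (10x Genomics, v3 chemistry), so no comparison here has a replicate check, and the fractions also differ in reporter, clone and host origin, which cannot be told apart from the mutation.

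Self-renewal means that a progenitor divides without maturing, and the transcription factors that sustain it are usually switched off as cells commit. *Myb* encodes a DNA-binding activator that definitive blood progenitors need, and it is known to fall as red cells mature. *Meis1* encodes a homeodomain protein that binds DNA with Pbx and Hox partners and is needed for megakaryocytes and stem cells. *Mecom* encodes a zinc finger protein known from stem cells and endothelium. *Mllt3* encodes a reader of acetylated histones that brings elongation and Dot1l complexes to genes, and it is known for roles both in stem cells and in the choice of the erythroid and megakaryocytic fates. *Hhex* encodes a homeodomain repressor of the haemato-endothelial precursor, and *Zbtb16* a zinc finger repressor of the BTB family that recruits histone deacetylases.

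The 6 genes differ widely in length, which matters for intron-derived counts. In GRCm38 with GENCODE vM21 annotation, *Mecom* (ENSMUSG00000027684) spans chr3:29951296-30548008 on the minus strand, or 597 kb, of which 2.08% is exonic. *Mllt3* (ENSMUSG00000028496) spans 263 kb at chr4:87769925-88033364 (minus, 4.56% exonic). *Zbtb16* (ENSMUSG00000066687) spans 182 kb at chr9:48654297-48836222 (minus, 2.90%), and *Meis1* (ENSMUSG00000020160) 139 kb at chr11:18879817-19018985 (minus, 7.57%). *Myb* (ENSMUSG00000019982) is shorter, with 36.1 kb at chr10:21124935-21160984 (minus, 24.8%). *Hhex* (ENSMUSG00000024986) is the shortest, with 5.92 kb at chr19:37434810-37440731 on the plus strand, and 85.4% of it is exonic.

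The promoters of *Myb* and *Mllt3* are shown because these genes differed in opposite directions between the fractions. They are the 250 bases before the RefSeq start sites (GRCm38.p6), on the gene's strand from 5′ to 3′. *Mllt3* has an annotated start at the 5′ end of the gene and an internal one, whose upstream bases overlap no GENCODE exon. Capitals mark matches, on either strand, to 5 short motifs: GATA (read as TGATAA or AGATAA), RUNX (TGTGGT), ETS (CCGGAA), MEIS (TGACAG) and MYB (AACTGAC or AACGGAC or AACTGCC or AACGGCC). Some motifs can share bases, as MYB and MEIS share TGAC, but no matches shown here overlap.
Myb promoter, chr10:21160985-21161234, minus strand: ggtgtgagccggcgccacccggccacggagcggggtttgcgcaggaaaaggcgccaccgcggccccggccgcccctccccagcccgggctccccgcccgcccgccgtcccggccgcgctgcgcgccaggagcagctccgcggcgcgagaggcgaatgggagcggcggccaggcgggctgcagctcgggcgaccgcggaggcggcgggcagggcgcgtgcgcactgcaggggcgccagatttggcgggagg
Mllt3 promoter, chr4:88033408-88033657, minus strand: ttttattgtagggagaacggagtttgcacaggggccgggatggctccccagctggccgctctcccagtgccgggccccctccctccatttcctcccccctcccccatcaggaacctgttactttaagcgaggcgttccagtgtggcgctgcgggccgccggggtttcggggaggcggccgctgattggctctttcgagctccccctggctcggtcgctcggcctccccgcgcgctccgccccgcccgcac
Mllt3 internal start, chr4:87806324-87806573, minus strand: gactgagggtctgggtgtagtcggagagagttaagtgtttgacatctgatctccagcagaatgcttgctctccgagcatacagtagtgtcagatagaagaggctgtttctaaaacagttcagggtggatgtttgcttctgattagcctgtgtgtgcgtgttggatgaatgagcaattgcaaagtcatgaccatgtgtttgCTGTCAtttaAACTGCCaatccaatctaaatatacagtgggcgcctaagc

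The *Myb* promoter, at 81.2% G and C, and the 5′ promoter of *Mllt3*, at 69.2%, held none of these letters. The internal *Mllt3* start had a MEIS match beginning 50 bases and a MYB match beginning 40 bases before it. RefSeq gave 7 start sites for 5 of the 6 genes, and 1 of the 7 held a GATA match, which began 31 bases before a start of *Mecom* and is shown with its surroundings, as is the RUNX match of *Meis1*, 166 bases before its start.
Mecom, 30 bases around the GATA match: tccaaatcaaagTGATAAatcgctccaaac
Meis1, 30 bases around the RUNX match: gtgccctgggtgTGTGGTgttagtgcctgg

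Among all 32851 promoters of the same length, 16.6% held a GATA match, 14.05% RUNX, 12.03% ETS, 15.9% MEIS and 7.48% MYB. Matches of such short motifs are therefore common, and they are given here only as a description of the letters.

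Depth was similar in the libraries, with a median of 20232 spliced UMIs (molecules counted once by their barcode) per blood or endothelial cell in tdTom+ and 18387 in tdTom-. After 367 and 530 called doublets were left out, the cells were clustered without the members and without the lists named below. Of the kept blood and endothelial cells, 1 cell barcode occurred in both libraries. Classes were named from marker genes. The tdTom- blood fell into erythroid-like (1382 cells), megakaryocyte-like (61) and myeloid-like (29) cells, and the tdTom+ blood into blood progenitor-like (1413) and myeloid-like (201) cells. Nearly every blood sub-cluster except the myeloid-like one was made of a single library, and such a sub-cluster may be that library and not a cell type. Endothelial-like cells came from both fractions, with 515 tdTom+ and 377 tdTom- cells in 4 shared sub-clusters. *Gata1* stood at 30.1 CPM (spliced UMIs per 1000000 of the group) in the progenitor-like tdTom+ cells and at 133 CPM in the erythroid-like tdTom- cells. The assay reads 3′ ends, outside the deleted bases, so this count bears on the labels only indirectly.

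Levels are spliced CPM of UMIs pooled over each group of cells, with exact 95% Poisson intervals that cover counting error only. *Myb* was highest in the tdTom+ progenitor-like cells, at 124 CPM (120 to 128). It followed in the myeloid-like tdTom+ cells at 75.2 CPM, the megakaryocyte-like tdTom- cells at 60.3 CPM and the myeloid-like tdTom- cells at 36.5 CPM. The erythroid-like tdTom- cells had 4.80 CPM (4.01 to 5.70), and the endothelial-like cells 1.23 CPM in tdTom+ against 0.639 in tdTom-. Neighbours in this order differed beyond counting error except the myeloid-like tdTom+ from the megakaryocyte-like cells, the latter from the myeloid-like tdTom- cells, and the endothelial fractions from each other. With every cell thinned to 5000 spliced UMIs, 40.1% of progenitor-like tdTom+ cells held a *Myb* UMI (82.7% before thinning). Cells with neural markers had 1.67% (4.39% before thinning) at a median of 16789 spliced UMIs against 21527. The erythroid-like tdTom- cells, with 2.30%, were close to the 1.55% of neural cells of their own library. Those neural cells are not a *Myb*-free background, since a cluster of them (457 tdTom- cells) had 5.07 CPM from 39 UMIs.

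*Mllt3* had a different order. It was highest in the erythroid-like tdTom- cells, at 212 CPM (206 to 218), and next in the megakaryocyte-like tdTom- cells, at 54.6 CPM (41.5 to 70.6). Then came a run of groups between 13.9 and 27.5 CPM whose neighbours did not differ beyond counting error: endothelial-like tdTom- (27.5) and tdTom+ (23.1), progenitor-like tdTom+ (22.9), myeloid-like tdTom- (19.2) and tdTom+ (13.9). At 5000 UMIs per cell, 64.1% of erythroid-like tdTom- cells held an *Mllt3* UMI, against 10.1% of progenitor-like tdTom+ cells. Within the endothelial-like cells, the sub-cluster led by *Etv2* and *Kdr* (7 in the plots) had 52.5 CPM in tdTom+ against 47.1 in tdTom-, and the one led by *Cldn5* and *Rasip1* (8) had 7.42 and 11.7 CPM. Free RNA, estimated as the mean level of the library times a share read from neural and cardiac genes (12.3% in tdTom+ and 13.6% in tdTom-), would give 7.94 and 15.3 CPM of *Mllt3* in endothelial-like cells. Haemoglobin genes made up 0.0203% and 0.152% of endothelial-like UMIs, against 0.406% and 2.00% in all kept cells of each library. That ratio lies below the shares used, so these values are upper limits.

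Among the blood and endothelial cells, spliced *Mecom* was read mainly in endothelium. The endothelial-like cells had 8.30 CPM (6.20 to 10.9) in tdTom- and 6.02 CPM (4.53 to 7.86) in tdTom+, which did not differ beyond counting error. Its highest level was in the sub-cluster led by *Lyve1* and *Plvap* (10), with 26.1 CPM (17.7 to 37.0) in tdTom- and 17.2 CPM (12.1 to 23.9) in tdTom+. In the blood it was rarely seen, with 2 spliced UMIs in the 1413 progenitor-like tdTom+ cells, 1 in the 1382 erythroid-like tdTom- cells and 0 in the 61 megakaryocyte-like cells, where 3 counts would be 2.82 CPM. The myeloid-like cells had 5 UMIs in tdTom+ and 2 in tdTom-, and the 7 groups differed beyond counting error from the next in order only between myeloid-like and progenitor-like tdTom+ cells. Unspliced UMIs, scaled to all unspliced UMIs of the same cells, gave higher numbers in another order. The 29 myeloid-like tdTom- cells had 615 CPM from 45 UMIs, all of them in 25 cells that took an endothelial-like name under finer clustering. The endothelial-like cells had 380 CPM in tdTom+ and 307 in tdTom-. The progenitor-like and erythroid-like cells were again low, at 3.08 and 5.16 CPM.

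*Meis1* was high in the myeloid-like and megakaryocyte-like cells. It had 78.7 CPM in the myeloid-like tdTom- cells, 65.0 CPM in the megakaryocyte-like cells and 60.7 CPM in the myeloid-like tdTom+ cells, and these did not differ beyond counting error. The endothelial-like cells had 15.2 CPM in tdTom+ against 13.3 in tdTom-, above the 4.57 CPM of the progenitor-like and the 1.34 CPM of the erythroid-like cells. Of these endothelial UMIs, 80 of 136 in tdTom+ and 47 of 83 in tdTom- came from the *Lyve1*- and *Plvap*-led sub-cluster, at 38.3 and 39.5 CPM. At 5000 UMIs per cell, 36.2% of megakaryocyte-like cells and 22.6% of myeloid-like tdTom+ cells held a *Meis1* UMI, against 1.11% of erythroid-like cells.

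*Hhex* was highest in the endothelial-like cells, with 30.5 CPM in tdTom- against 28.2 in tdTom+. The *Etv2*- and *Kdr*-led sub-cluster had the most, at 43.4 CPM (35.5 to 52.5) in tdTom- and 45.4 CPM (37.5 to 54.5) in tdTom+. Myeloid-like and megakaryocyte-like cells lay between 9.52 and 13.4 CPM, progenitor-like tdTom+ cells had 5.98 CPM, and erythroid-like tdTom- cells had 1.19 CPM. The endothelial fractions did not differ beyond counting error, nor did neighbours among the myeloid-like and megakaryocyte-like groups. The spliced table held only 11.5% of the *Hhex* UMIs in the authors' gene-level totals (983 of 8576) and no unspliced *Hhex* UMI in any cell. Over the 10636 genes with at least 1000 such UMIs the median was 94.98%, and 6.49% of genes lay under 20%. For *Mecom* the share was 47.5%, and for the other members 72.3% to 99.7%. *Hhex* and *Mecom* levels are therefore understated, and whether their differences between groups are affected was not tested.

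*Zbtb16* was highest in the progenitor-like tdTom+ cells, at 22.7 CPM (21.1 to 24.5), and second in the myeloid-like tdTom+ cells, at 8.24 CPM. The endothelial-like cells had 3.51 CPM in tdTom- against 2.57 in tdTom+. Free RNA was estimated at 2.52 and 2.13 CPM there, which are upper limits as for *Mllt3*. Every tdTom- blood group was near 0, with 7 UMIs in the 1382 erythroid-like cells, 2 in the 61 megakaryocyte-like cells and 0 in the 29 myeloid-like cells, where 3 counts would be 5.76 CPM. From the endothelial-like tdTom- cells downward, neighbours in the order did not differ beyond counting error. At 5000 UMIs per cell, 9.42% of progenitor-like tdTom+ cells held a *Zbtb16* UMI and 0.148% of erythroid-like tdTom- cells did, at medians of 21527 and 19098 spliced UMIs before thinning.

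**Figure D1:**
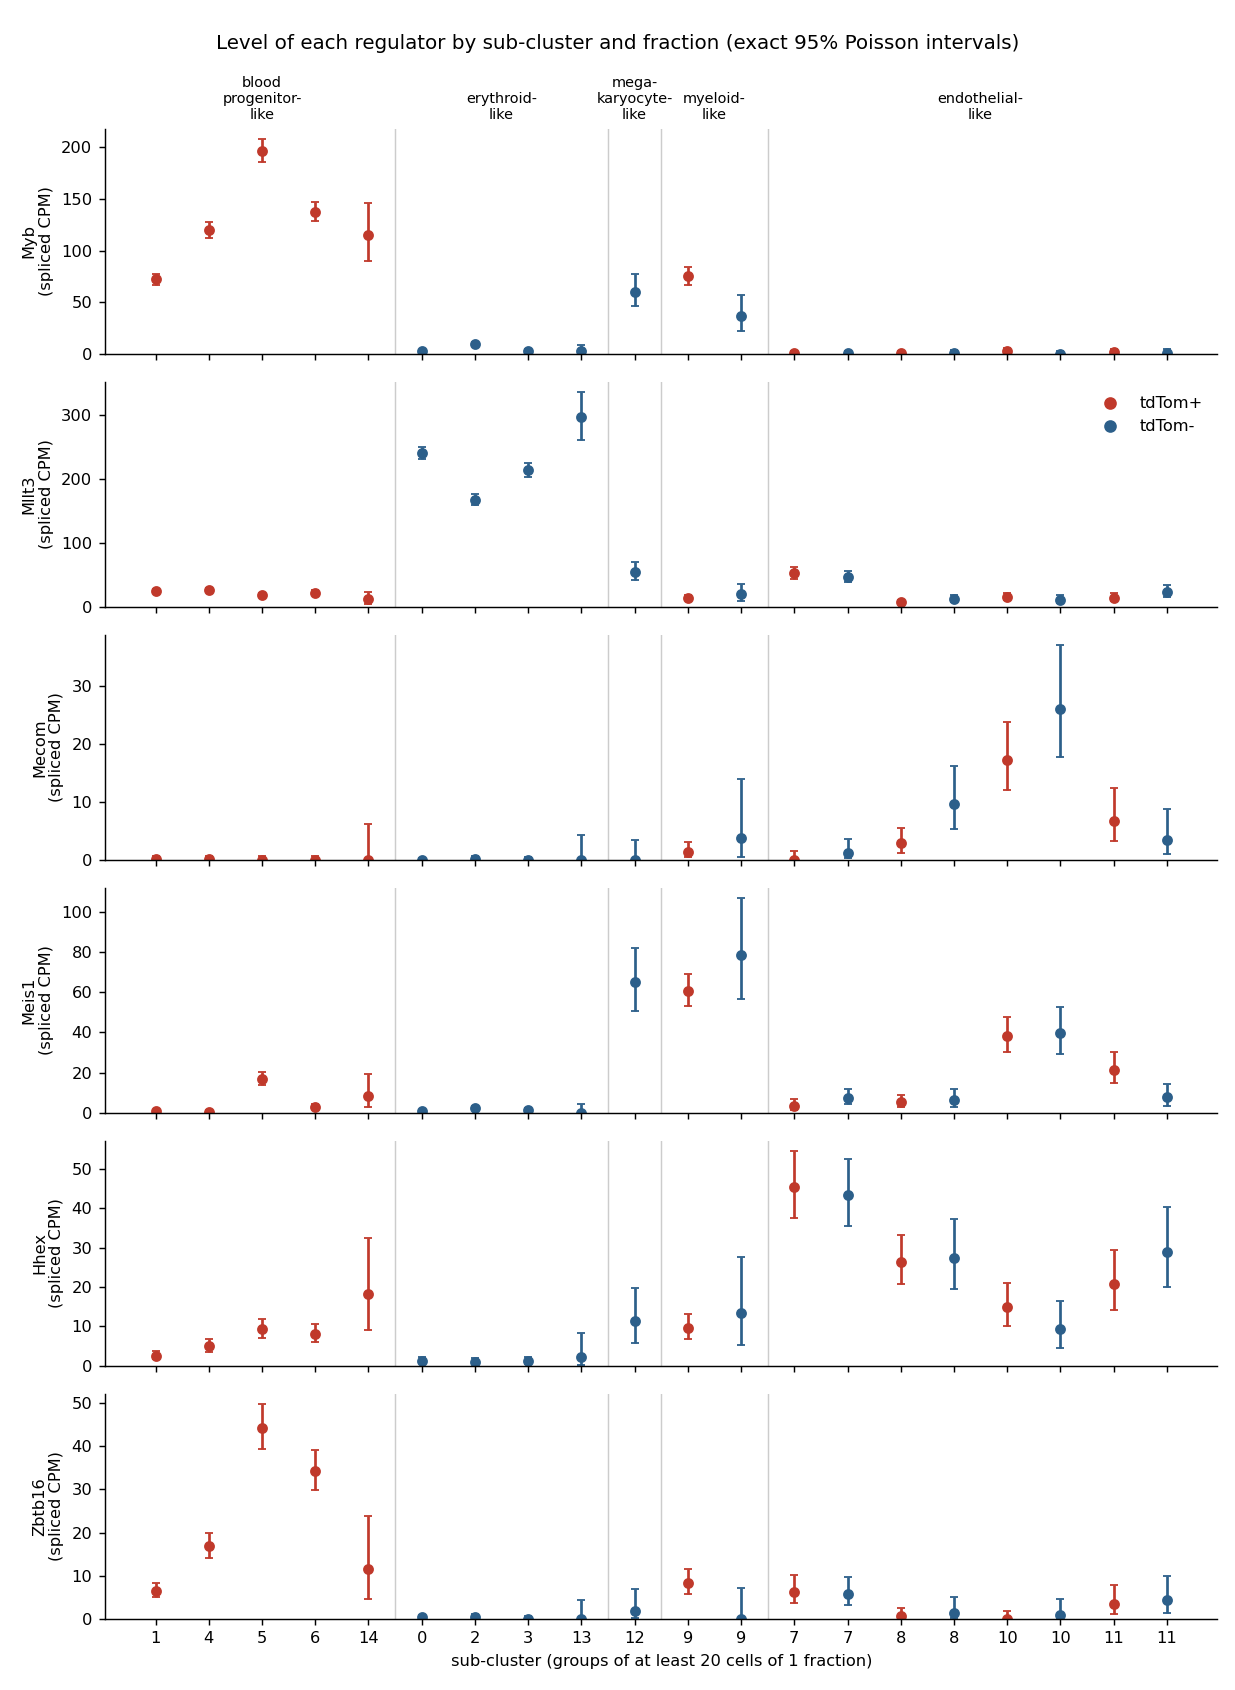
Spliced CPM of each regulator (vertical axis, 1 panel per gene) in the sub-clusters of at least 20 cells of 1 fraction (horizontal axis), with tdTom+ in red and tdTom- in blue and bars for exact 95% Poisson intervals. *Myb* and *Zbtb16* stand high in the tdTom+ progenitor-like sub-clusters, *Mllt3* in the tdTom- erythroid-like ones (167 to 297 CPM), *Mecom* and *Hhex* in endothelial-like ones and *Meis1* in megakaryocyte-like and myeloid-like cells.

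With cells thinned to 5000 spliced UMIs, few held several members at once. Before thinning, 82.7% of progenitor-like tdTom+ cells held a *Myb* UMI, 34.75% an *Mllt3* UMI and 30.9% a *Zbtb16* UMI. Thinning therefore understates how many cells hold several members, and the share at full depth was not counted. At 5000 UMIs per cell the mean number of members with a UMI was 0.647 in progenitor-like tdTom+ cells, 0.681 in erythroid-like tdTom- cells, 0.897 in megakaryocyte-like cells and 0.327 and 0.340 in endothelial-like tdTom+ and tdTom- cells. At least 4 members together were seen in 0.0714% of the progenitor-like cells and in none of the 1351 thinned erythroid-like cells. *Myb* and *Zbtb16* had the highest correlation of any pair of members over the 20 groups of the plot of levels by sub-cluster (Pearson r = 0.63), and *Mllt3* had a negative r with each of the other 5, from -0.65 with *Hhex* to -0.15 with *Myb*. These groups share 2 libraries, so r is a description.

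To set mutant beside wildtype blood cells, each tdTom+ blood cell was assigned to the class of its 15 nearest tdTom- cells. This put 1236 tdTom+ cells beside the 425 tdTom- cells of the earliest erythroid-like sub-cluster, the one with the lowest haemoglobin share. Of the 1236, only 1 lay in an erythroid-like sub-cluster, and the others were progenitor-like. The matched cells were not at the same stage, since haemoglobin genes made up 1.98% of spliced UMIs in tdTom+ and 6.51% in tdTom-. In this early erythroid-like comparison 4 of the 5 members with at least 20 UMIs were past 2-fold, against 14.9% of all 10742 genes with that many. *Myb*, *Zbtb16* and *Hhex* were higher in tdTom+, as were 11% of all genes, and *Mllt3* was lower, as were 3.95%.

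*Myb* stood at 119.8 CPM in tdTom+ against 9.37 in tdTom-, a log2 fold of 3.68 (3.36 to 4.01), which was 2.87 at resolution 2 of the sub-clustering. *Zbtb16* had 22.1 and 0.343 CPM, from 606 and 3 UMIs, with a log2 fold of 6.01 whose counting interval runs from 4.46 to 8.29. The tdTom- level lies below the 0.484 CPM estimated to come from free RNA, so this fold is against background. *Hhex* had 5.66 and 1.03 CPM, a log2 fold of 2.46 (1.498 to 3.62), which was 1.21 at resolution 2 of the sub-clustering. For these 3 genes tdTom+ thus lay above tdTom- by more than counting error. *Mllt3* had 23.3 CPM in tdTom+ against 167 in tdTom-, a log2 fold of -2.84 (-2.98 to -2.71), and *Meis1* 1.90 and 2.17 CPM, a log2 fold of -0.19 (-0.98 to 0.65). *Mecom* had 2 and 1 UMIs, too few to read. The median log2 fold was 2.46 over the 5 members and 0.13 over all genes. Markers of other cells differed as well: the blood progenitor markers summed to 437 CPM in tdTom+ against 141 in tdTom- (4 of 6 past 2-fold higher), and the myeloid markers to 9.93 and 0.343 CPM (4 of 6 higher, the other 2 with too few UMIs). The megakaryocyte markers summed to 19.6 and 55.3 CPM (3 of 5 higher, 1 lower) and the endothelial markers to 21.1 and 44.2 CPM (3 of 5 lower). Their part in the members' differences, and that of the haemoglobin share, was not tested. Without the 181 matched cells of the sub-cluster led by *Spi1*, the log2 fold was 3.48 for *Myb* and 5.65 for *Zbtb16*.

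The later erythroid-like comparison rested on few mutant cells, 76 tdTom+ against 957 tdTom-, with haemoglobin shares of 3.18% and 11.8%. Its label is weak for tdTom+, since 70 of the 76 came from a progenitor-like sub-cluster (4) and 2 from an erythroid-like one. Their haemoglobin share was also below the 6.51% of the early tdTom- cells. All 4 members with enough UMIs were past 2-fold, against 17% of genes, with 3 higher in tdTom+ (10.9% of genes) and 1 lower (6.17%). It shares both libraries, but no cell, with the early comparison. The progenitor markers summed to 407 CPM in tdTom+ against 138 in tdTom- (3 of 5 past 2-fold higher, 1 lower), the megakaryocyte markers to 11.3 and 30.9 CPM and the endothelial markers to 13.2 and 30.7 CPM, and their part in the members' differences was not tested. *Myb* had 111 CPM in tdTom+ against 2.59 in tdTom-, a log2 fold of 5.42 (4.95 to 5.92), which was 4.69 at resolution 2 of the sub-clustering. *Zbtb16* had 15.7 and 0.221 CPM from 25 and 4 UMIs (log2 fold 6.15, 4.62 to 8.13), the latter again below the 0.406 CPM of free RNA, and *Hhex* 5.65 and 1.27 CPM from 9 and 23 UMIs (2.15, 0.86 to 3.32). *Mllt3* had 32.0 and 234 CPM, a log2 fold of -2.87 (-3.30 to -2.47), which was -2.21 with cells thinned to 5000 UMIs. Within tdTom-, *Mllt3* was higher and *Myb* lower in these later cells than in the early ones. *Meis1* had 1 and 17 UMIs, and no spliced *Mecom* UMI was seen in either fraction.

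Among megakaryocyte-like cells, 97 tdTom+ cells were matched to the 61 tdTom- cells, and 89 of the 97 came from the *Spi1*-led progenitor-like sub-cluster. Their label is weak, since the megakaryocyte markers summed to 105 CPM in tdTom+ against 301 in tdTom-, the progenitor markers to 709 and 266 CPM and the myeloid markers to 226 and 93.2 CPM. The erythroid markers summed to 3990 and 10689 CPM (5 of 7 lower), the endothelial ones to 87.9 and 192 CPM (3 of 6 lower) and the endoderm ones to 7.95 and 38.6 CPM (2 of 2 lower), and the part of all these in the members' differences was not tested. Of the members, 3 of 5 were past 2-fold, against 10.6% of genes (5.76% higher and 4.84% lower). *Myb* had 188 CPM in tdTom+ against 60.3 in tdTom-, a log2 fold of 1.64 (1.26 to 2.05), and *Zbtb16* 34.3 and 1.88 CPM from 69 and 2 UMIs (4.19, 2.28 to 7.26). *Mllt3* was again lower in tdTom+, with 9.44 and 54.6 CPM (log2 fold -2.53, -3.36 to -1.76, and -1.67 at resolution 2 of the sub-clustering or -1.70 with cosine distance in the matching). *Meis1*, which megakaryocytes need, had 40.7 and 65.0 CPM (-0.67, -1.15 to -0.19), lower by more than counting error but within 2-fold (with cosine distance in the matching it was -1.86, which made 4 members past 2-fold), and *Hhex* 8.94 and 11.3 CPM (-0.34, -1.47 to 0.85). *Mecom* had no spliced UMI in either fraction. With the *Spi1*-led cells left out, 8 tdTom+ cells remained, and the log2 fold was 1.83 for *Zbtb16* and 1.15 for *Myb*. Of these 8 cells, 5 belonged to the myeloid-like sub-cluster, and are also in the myeloid-like comparison, and 2 to the megakaryocyte-like one. With so few cells, and 2 *Zbtb16* UMIs in tdTom-, these folds do not show whether a difference remained.

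The myeloid-like sub-cluster held cells of both libraries, 201 tdTom+ and 29 tdTom-, and 1 of 5 members was past 2-fold, against 11.7% of genes (7.49% higher and 4.26% lower). That member was *Myb*, with 75.2 CPM in tdTom+ against 36.5 in tdTom- (log2 fold 1.04, 0.37 to 1.80). Its unspliced UMIs, 39 and 6, gave a log2 fold of -0.22 (-1.47 to 1.31), an interval that includes 0. At resolution 2 the class split unequally, since 25 of its 29 tdTom- cells but 114 of its 201 tdTom+ cells joined an endothelial-like sub-cluster led by *Cd34* and *Ctla2a*, in which *Fcer1g* and *Spi1* were also among the leading genes. Within those cells *Myb* had 68.1 CPM in tdTom+ against 37.8 in tdTom-. The 4 tdTom- cells that kept the myeloid-like name had 0 *Myb* UMIs, too few cells for a fold. Other markers differed too: the myeloid markers summed to 1003 CPM in tdTom+ against 545 in tdTom- (3 of 6 past 2-fold higher, 1 lower), the endothelial ones to 511 and 747 CPM, the megakaryocyte ones to 126 and 213 CPM, and 2 of 6 progenitor markers, *Kit* and *Ikzf1*, were past 2-fold higher. Their part in the members' values was not tested. *Meis1*, *Mllt3* and *Hhex* had log2 folds of -0.37, -0.47 and -0.50 with intervals that include 0. *Zbtb16* had 32 UMIs in tdTom+ and 0 in tdTom-. With 3 counts in place of 0 its log2 fold was 0.52 (lower counting limit 0.13). Of the 32 UMIs, 28 lay in the 87 tdTom+ cells that kept the myeloid-like name at resolution 2. In the cells with the endothelial-like name *Zbtb16* had 4 UMIs in tdTom+ and 0 in tdTom-. *Mecom* had too few spliced UMIs, but its unspliced UMIs, 59 in tdTom+ and 45 in tdTom-, came to 107 and 615 CPM, a log2 fold of -2.53 (-3.11 to -1.93). Of these, 56 and 45 lay in the cells with the endothelial-like name at resolution 2, at 178 and 639 CPM.

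In the endothelial-like cells, where no matching was needed, none of the 5 members with enough UMIs was past 2-fold, against 2.57% of 10721 genes (1.06% higher and 1.5% lower). The log2 folds were -0.46 (-1.04 to 0.11) for *Mecom*, -0.45 (-1.36 to 0.46) for *Zbtb16*, -0.25 (-0.55 to 0.05) for *Mllt3*, -0.11 (-0.39 to 0.17) for *Hhex* and 0.20 (-0.21 to 0.61) for *Meis1*, and every interval includes 0. *Myb* had 11 and 4 UMIs. For *Mecom* and *Zbtb16* the interval reaches beyond 2-fold, so a difference of that size would be within counting error at this depth. The endothelial markers summed to 1769 CPM in tdTom+ against 1866 in tdTom-, with 0 of 8 past 2-fold, while all 7 erythroid markers were past 2-fold lower in tdTom+ (199 against 1502 CPM), whose part in the members' values was not tested.

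Within single endothelial-like sub-clusters, 3 of 15 member values with at least 20 UMIs were past 2-fold, 1 higher and 2 lower in tdTom+, against 3.74% of such values over all genes (1.8% higher and 1.95% lower). In the *Emcn*- and *Etv2*-led sub-cluster (11) *Meis1* had 21.5 CPM in tdTom+ against 7.65 in tdTom- (log2 fold 1.49, 0.39 to 2.74), and its unspliced UMIs had a log2 fold of 0.92. In the *Cldn5*- and *Rasip1*-led one *Mecom* had 2.83 and 9.62 CPM (-1.77, -3.23 to -0.41), from 8 and 14 UMIs, with an unspliced log2 fold of -0.71. In the *Etv2*- and *Kdr*-led one *Meis1* had 3.53 and 7.37 CPM, from 9 and 18 UMIs, with an interval that includes 0. The estimated free RNA share, an upper limit, was 17.3% in tdTom+ and 16.6% in tdTom- of this sub-cluster. It was 18.6% and 18.9% in the *Emcn*- and *Etv2*-led one. The part of free RNA in these low *Meis1* values was not tested. In the sub-cluster where *Mecom* was highest, its log2 fold was -0.60 (-1.33 to 0.14) for spliced and 0.20 (-0.05 to 0.46) for unspliced UMIs. *Hhex* and *Mllt3* stayed within 2-fold in all 4.

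Outside blood and endothelium the members were read in 6452 tdTom+ and 6862 tdTom- cells. *Mllt3* stood at 81.1 and 93.4 CPM in tdTom+ and tdTom-, *Meis1* at 40.3 and 39.9, and *Zbtb16* at 17.2 and 24.3. *Myb* (2.23 and 1.40), *Mecom* (1.64 and 2.20) and *Hhex* (0.795 and 1.18) were low when pooled over these cells, but not in every cluster. In the *Lhx2*- and *Rax*-led cluster, with neural markers, *Mecom* had 4.25 and 7.67 CPM, beside 8.30 in endothelial-like tdTom- cells. In the *Pyy*- and *Spink1*-led cluster, with endoderm markers, *Mecom* had 2.00 and 6.16 CPM. *Hhex* had 15.4 and 28.2 CPM there, the latter close to its level in endothelial-like cells. Among clusters of at least 100 cells in each fraction and at least 20 UMIs of the gene, *Mllt3* and *Meis1* were past 2-fold between the fractions in 0 of 19 clusters each, with median log2 folds of -0.15 (range -0.56 to 0.42) and -0.11 (-0.71 to 0.75). *Zbtb16* was past 2-fold higher in tdTom+ in 2 of 18 clusters, with a median of -0.23 (-0.78 to 1.11). *Mecom* was past 2-fold lower in 1 of 8, with a median of -0.17 (-1.62 to 0.18). *Myb* was within 2-fold in its 6 clusters (-0.95 to 0.86). *Hhex* had enough UMIs in 1 cluster, the *Pyy*- and *Spink1*-led one, with a log2 fold of -0.87 (counting interval -1.39 to -0.36). Together 2 of the 71 member values were past 2-fold higher and 1 lower, against 1.03% and 1.92% (2.94% in either direction) of 189340 values over all genes in the same clusters.

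**Figure D2:**
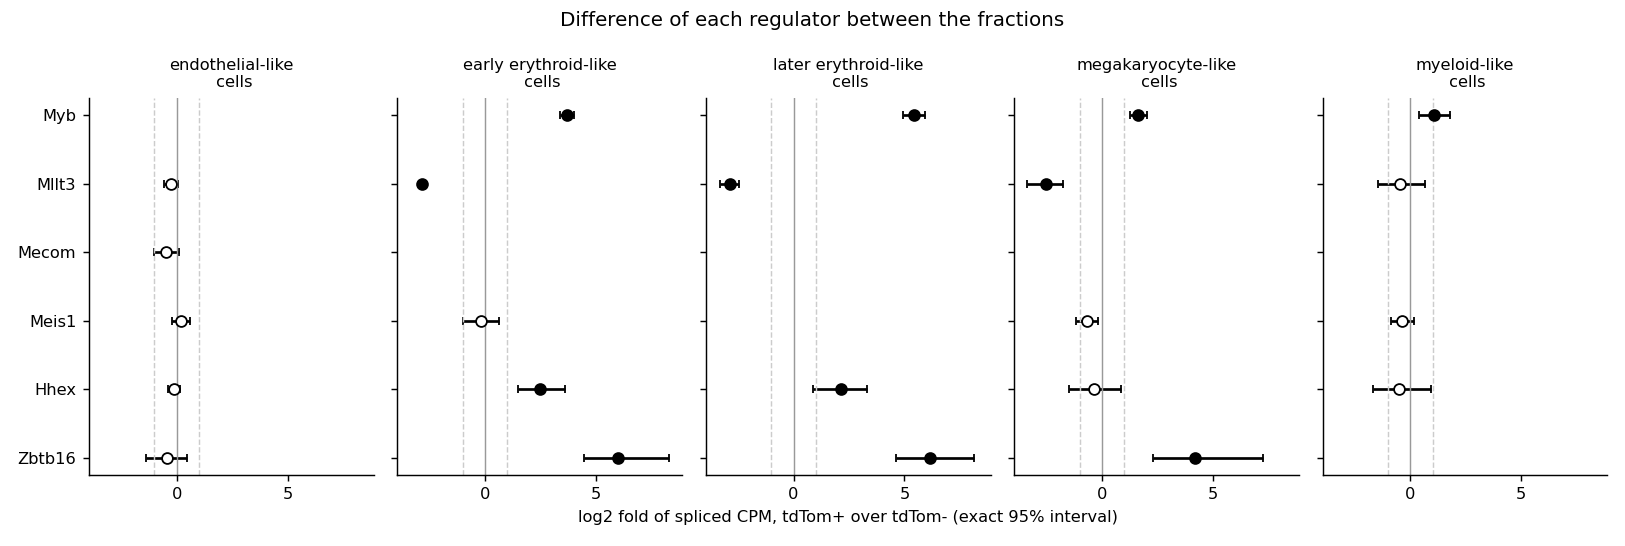
Log2 fold of spliced CPM, tdTom+ over tdTom- (horizontal axis), for the regulators with at least 20 spliced UMIs and a count in both fractions, in 5 comparisons. Bars are exact 95% intervals, filled points are past 2-fold (dashed lines at -1 and 1), and in early and later erythroid-like cells *Myb*, *Hhex* and *Zbtb16* lie to the right and *Mllt3* to the left, while the endothelial points lie near 0.

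The mutant progenitor-like cells were not uniform. Of the 4 such sub-clusters of over 100 cells, the *Spi1*-led one (5 in the plots) had the lowest haemoglobin share (1.05%) and the one led by *Slc32a1*, *Car2* and *Homer2* (1 in the plots) the highest (2.28%). The latter is called *Slc32a1*-led below, although sub-cluster 4 begins with the same 2 genes. Over these 4 sub-clusters, in the order of rising haemoglobin, *Myb* stood at 197, 137, 119.9 and 72.2 CPM, and *Zbtb16* at 44.2, 34.2, 16.8 and 6.51 CPM. *Hhex* followed at 9.31, 8.06, 4.90 and 2.54 CPM. All 3 were thus lower where the haemoglobin share was higher, although the last 3 of these shares lie close together, between 2.08% and 2.28%. *Meis1* was high only in the *Spi1*-led sub-cluster, at 16.8 CPM, against 2.79, 0.516 and 0.712 CPM. *Mllt3* went the other way over a small range, from 17.9 to 26.1 CPM.

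Set directly against each other, the *Spi1*-led over the *Slc32a1*-led sub-cluster gave log2 folds of 4.56 (3.47 to 5.91) for *Meis1* (whose 7 UMIs in the latter, 0.712 CPM, lie below the 0.784 CPM of free RNA), 2.76 (2.37 to 3.18) for *Zbtb16*, 1.87 (1.18 to 2.61) for *Hhex*, 1.45 (1.31 to 1.58) for *Myb* and -0.49 (-0.82 to -0.16) for *Mllt3*. Past 2-fold were 4 of 5 members, all of them higher, against 14% of all 9752 genes in either direction and 11.8% higher. The blood progenitor markers summed to 664 CPM in the *Spi1*-led against 332 CPM in the *Slc32a1*-led sub-cluster. The myeloid markers summed to 137 CPM in the *Spi1*-led against 1.63 CPM in the *Slc32a1*-led sub-cluster, the megakaryocyte markers to 53.1 and 12.4 CPM and the endothelial markers to 45.02 and 18.6 CPM, and their part in these folds was not tested. Unspliced UMIs gave 4.55 for *Meis1* and 2.17 for *Zbtb16*, but 0.58 for *Myb*. A small sub-cluster of 36 tdTom+ cells led by *Cdkn1a* (14), a cell cycle inhibitor, had the lowest haemoglobin share (0.982%) but not the highest *Myb* (116 CPM) or *Zbtb16* (11.6 CPM). Its *Hhex* level, from few UMIs, was the highest of the progenitor-like sub-clusters.

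In the wildtype erythroid-like cells the order of haemoglobin was also that of *Mllt3*. The 4 sub-clusters had haemoglobin shares of 6.51%, 10.1%, 12.7% and 14.9%, and *Mllt3* stood in them at 167, 215, 241 and 297 CPM, each beyond the counting interval of the one before. *Myb* stood at 9.37, 3.03, 2.32 and 2.33 CPM. The highest haemoglobin share of a large mutant sub-cluster was below the lowest wildtype erythroid-like one, so no erythroid-like sub-cluster allows a comparison at equal haemoglobin. The megakaryocyte-like tdTom- cells, another class, had 1.08%, near the 1.05% of the *Spi1*-led mutant sub-cluster, with *Mllt3* at 54.6 and 17.9 CPM. The mutant *Mllt3* level of 25.0 CPM at 2.28% haemoglobin therefore lies outside the wildtype erythroid-like range on both axes.

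**Figure D3:**
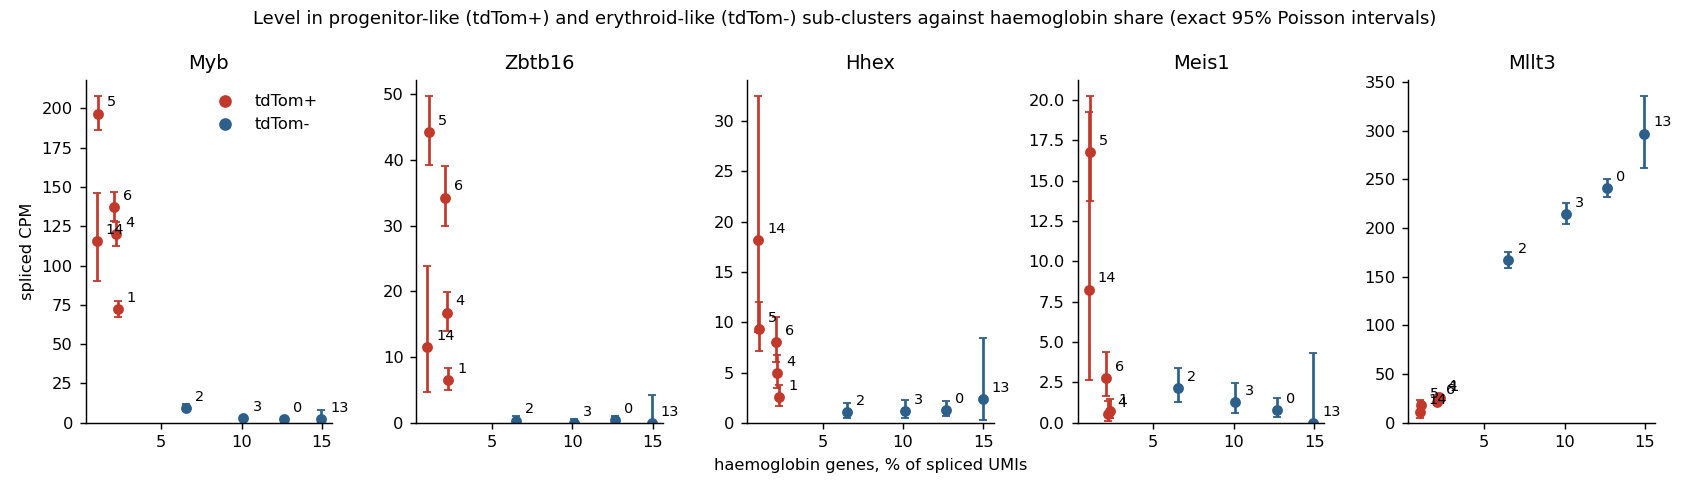
Spliced CPM (vertical axis) of 5 regulators against the share of spliced UMIs from haemoglobin genes (horizontal axis, percent), for tdTom+ progenitor-like sub-clusters in red and tdTom- erythroid-like sub-clusters in blue, numbered as in the plot of levels by sub-cluster. Bars are exact 95% Poisson intervals, the fractions do not overlap in haemoglobin share, and *Mllt3* climbs from 167 to 297 CPM over the wildtype sub-clusters, the last of them (13) the *Cdkn1a*-led one of 49 cells.

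Unspliced UMIs, which come mostly from introns, separated *Mllt3* from the other members that had at least 50 UMIs in each fraction. In the erythroid-like and megakaryocyte-like comparisons these were *Myb* and, except in the later erythroid-like cells, *Meis1*. In the early erythroid-like comparison, 65.8% of *Mllt3* UMIs were unspliced in tdTom+ (exact binomial interval 63.6 to 68.0) and 26.6% in tdTom- (24.7 to 28.6), 39.2 points apart. A share at least 20 points higher in tdTom+ was seen in 0.137% of genes (11 of 8031 with at least 50 UMIs in each fraction), of which *Gata1* itself was another, at 58.8% and 6.93%. Among the later erythroid-like cells *Mllt3* had 47.4% (37.2 to 57.8) and 18.2% (17.1 to 19.3), where 0.178% of genes differed that far, and among the megakaryocyte-like cells 80.8% (71.7 to 88.0) and 42.0% (32.2 to 52.3), where 0.229% did. In endothelial-like cells, where 0.102% of genes differed that far, the share was 66.8% and 66.7%, and outside blood and endothelium it was 74.2% in tdTom+ and 75.0% in tdTom-. The low unspliced share was thus found in the wildtype erythroid-like and megakaryocyte-like cells.

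The unspliced *Mllt3* level differed less than the spliced one, with log2 folds of -0.53 in early erythroid-like, -0.90 in later erythroid-like and -0.07 in megakaryocyte-like cells. With both kinds of UMI together they were -1.75, -2.23 and -0.95, so that the last was no longer past 2-fold. No other member with at least 50 UMIs in each fraction was 20 points higher in tdTom+ in any comparison, the myeloid-like one included, where 0.0442% of genes were. *Myb* had 12.8% unspliced in tdTom+ and 16.3% in tdTom- of the early erythroid-like cells, and *Meis1* 73.9% and 74.3%. In the endothelial-like cells *Mecom* had 90.7% and 85.6%, *Meis1* 78.2% and 80.2% and *Zbtb16* 62.3% and 62.1%. The longest gene, *Mecom*, had the highest shares, and *Hhex* none.

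**Figure D4:**
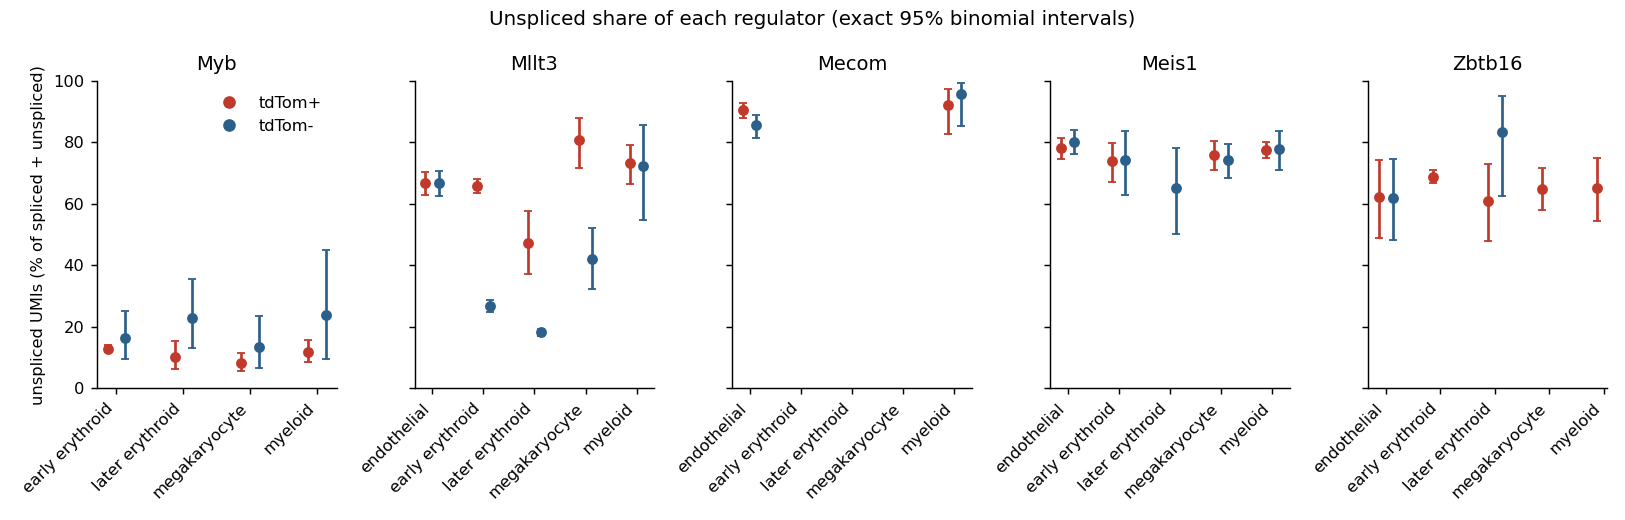
Unspliced share of spliced plus unspliced UMIs (vertical axis, percent) of 5 regulators by comparison (horizontal axis), tdTom+ in red and tdTom- in blue, with exact 95% binomial intervals. *Mllt3* is apart in the early erythroid-like (65.8% against 26.6%), later erythroid-like and megakaryocyte-like cells and level in endothelial-like cells, and *Hhex* is left out because it had no unspliced UMI.

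Genes that work with the members were read from lists. Of 8 partners of Meis1 (Pbx and Hox proteins and other Meis proteins), none of the 8, 7, 5 and 3 with enough UMIs was past 2-fold in endothelial-like, early and later erythroid-like and megakaryocyte-like cells, where 2.57%, 14.9%, 17% and 10.6% of all genes were, so that few or no calls would be usual for lists this short. In the myeloid-like cells *Meis2*, a paralog, was lower in tdTom+, with 4.38 CPM in tdTom+ against 30.7 in tdTom- (log2 fold -2.81, -3.88 to -1.73). Of the 4 genes of the Myb family and its coactivators none was past 2-fold in any comparison, which at those shares is no result about them.

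Of 11 partners of Mllt3 in the elongation and Dot1l complexes, 10 had enough UMIs in each comparison. *Ell2*, an elongation factor, was lower in tdTom+ in the early erythroid-like cells, at 31.3 and 75.7 CPM (log2 fold -1.28, -1.42 to -1.13), in the endothelial-like cells, at 1.45 and 4.15 CPM (-1.52), and in the megakaryocyte-like cells, at 11.4 and 30.1 CPM (-1.40). It was the only one of 10 partners past 2-fold in the first of these (14.9% of all genes), and 0 of 10 were in the later erythroid-like cells (17%), which is not above the share of all genes. In the endothelial-like cells *Ell2* was also the only one of 10 (2.57% of all genes). All 7 erythroid markers were lower in tdTom+ there too, and their part in this *Ell2* value was not tested. In the megakaryocyte-like cells, with 4 of 10 past 2-fold (10.6% of all genes), *Ell* and *Aff1* were higher and *Mllt1* lower, and in the myeloid-like cells *Mllt1* was higher, each with an interval that includes 0 except *Aff1* (log2 fold 1.08, 0.18 to 2.08). The list's median log2 fold in the early comparison was 0.09, against 0.13 over all genes.

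Among the Mecom paralog and corepressors, *Prdm16* alone was past 2-fold, in the early erythroid-like cells, at 1.57 and 0.572 CPM (log2 fold 1.46, 0.12 to 3.15). Of 8 corepressors that Zbtb16 and Hhex use, *Tle4*, a Groucho family corepressor, was higher in tdTom+ in the early (71.2 and 35.6 CPM, log2 fold 1.00, 0.83 to 1.18), later (1.02) and megakaryocyte-like (1.27) cells.

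Of 29 other stem and progenitor regulators, 8 of 21 with enough UMIs were higher and 0 lower in tdTom+ early erythroid-like cells (11% and 3.95% of all genes), with a median log2 fold of 0.55 against 0.13 over all genes. The list was chosen with results known, and it moved beside the progenitor markers given above, whose part was not tested. *Fli1*, an ETS factor, had 19.7 CPM in tdTom+ against 4.46 in tdTom- (log2 fold 2.14, 1.67 to 2.65). *Ikzf2*, an Ikaros family factor, had 56.4 and 14.3 CPM (1.98, 1.72 to 2.26), and *Cbfb*, the partner of Runx proteins, 16.8 and 4.34 CPM (1.95, 1.47 to 2.47). In the later erythroid-like cells 8 of 18 were higher and 2 lower (10.9% and 6.17% of all genes), led by *Fli1* (3.23), *Ikzf2* (3.08) and *Mycn* (2.29), and the lower ones were *Gfi1b* (-1.45) and *Egr1* (-1.26). In the megakaryocyte-like cells 6 of 20 were higher (5.76% of all genes) and 1, *Lmo2*, was lower (-1.30; 4.84%), with *Cd34* at 46.2 and 11.3 CPM (2.03), *Hmga2* at 476 and 126 CPM (1.92) and *Erg* at 17.9 and 6.59 CPM (1.44). In the endothelial-like cells 0 of 25 were past 2-fold, and in the myeloid-like cells 1 of 24 was higher (7.49% of all genes), *Egr1* (2.42), and 3 lower (4.26%), *Nkx2-3* (-2.36), *Procr* (-1.60) and *Id2* (-1.14). *Gfi1b*, *Lmo2*, *Id2*, the later *Egr1* value and *Aff1* are named after their values were seen. The comparisons share the libraries.

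The genes whose levels followed each member most closely were found over the same 20 groups, as Pearson r of log2(CPM + 1) among 7542 genes, and they are given as a description of likeness alone. For *Myb* they were *Hexim1* (0.98), *Slc48a1* (0.95) and *Ctps2* (0.94), for *Zbtb16* *M6pr* (0.93), *Cbx5* (0.88) and *Ppp1r3g* (0.87), and for *Mllt3* *Abcg2*, *Prss50* and *Ank1* (each 0.91). For *Mecom* they were *S100a16* (0.95), *Acot9* (0.94) and *Gpr182* (0.94), for *Meis1* *Tln1* (0.94), *Pip4k2a* (0.92) and *Fnbp1* (0.92), and for *Hhex* *Smarca2* (0.95), *Birc6* (0.95) and *Vgll4* (0.94).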

How the data were processed

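Cells of both fractions were measured by droplet-based scRNA-Seq. The authors aligned reads to mm10 with Cell Ranger 3.0.2 (GRCm38 annotation, the tdTomato sequence added), removed empty droplets and low-quality cells, separated molecules with velocyto, and deposited spliced and unspliced raw UMI counts per cell and gene. They also deposited per-cell quality metrics with the percent of mitochondrial UMIs (medians of 2.07% and 2.08%). Their cell type labels were not used here, so rebuilt classes may differ. All values in the count tables were whole, and 0 columns belonged to other series.

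From these counts, doublets were called with Scrublet in each library, and cells were scaled to 10000 UMIs, logged and clustered with Leiden (whole embryo: 1874 variable genes, 50 components, 20 neighbours, resolution 1.5; blood and endothelium: 1951, 30, 15 and 1), leaving out 79 genes (members, lists and sex genes). A class needed at least 3 markers raised 2-fold with 10 CPM added. Tools were scanpy 1.11.5, leidenalg 0.10.2, scikit-learn 1.9.0, scipy 1.17.1, numpy 2.4.6, matplotlib 3.10.9 and pandas 2.3.3 under Python 3.11.15. CPM are of summed UMIs; log2 folds carry exact conditional intervals, past 2-fold means a log2 fold of at least 1 in size with at least 20 spliced UMIs over both fractions, and a count of 0 was replaced by 3 counts over the group to give a bound. With 1 library per fraction no test between fractions was run, because cells do not replicate a condition, and p-values are absent; intervals cover counting error only. The code for intervals was checked on counts simulated with known folds.

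Named were the members, *Gata1*, up to 3 listed genes past 2-fold per list and comparison, the 3 genes most like each member, and class markers; some listed genes past 2-fold are not reported here. Members and lists were chosen with earlier results of these data known. The 20-point and 50-UMI limits for unspliced shares, the comparison of the *Spi1*-led with the *Slc32a1*-led sub-cluster, and the alternatives without the *Spi1*-led or *Cdkn1a*-led cells were chosen after seeing the data. Alternatives varied the UMIs that enter, the CPM denominator, cell weights, depth (5000 UMIs), doublets, free RNA, matching (5 neighbours, cosine distance), resolution (2) and the minimum of UMIs (100).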

Additional observations from a re-analysis of the deposited data

How the results depend on the processing

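No replicate could be left out, because each fraction has 1 library. No paired analysis was possible because each fraction has 1 library and no test was run. In early and later erythroid-like cells *Myb*, *Zbtb16* and *Hhex* stayed higher and *Mllt3* lower in tdTom+ under every alternative that gave a value, with log2 folds from 2.87 to 3.68 for *Myb* and from -2.92 to -0.53 for *Mllt3* in the early cells. The number of members past 2-fold stayed within 1.5 times the reported one in 43 counts and moved in 13. With unspliced UMIs alone it was 2 in place of 4 in early and in later erythroid-like cells, 1 in place of 3 in megakaryocyte-like cells and 2 in place of 1 in myeloid-like cells, and *Hhex* has no unspliced UMI to enter. Thinning to 5000 UMIs gave 2 in later erythroid-like and 0 in myeloid-like cells. A minimum of 100 UMIs gave 2 in later erythroid-like and 1 in megakaryocyte-like cells, where fewer genes enter. The mean of CPM over cells gave 2 in myeloid-like cells. In endothelial-like cells, with 0 reported, 1 was past 2-fold with doublets kept in (*Myb*, log2 fold 1.94), at resolution 2 (*Myb*, 2.04) and with free RNA subtracted (*Zbtb16*, -1.19, at shares that are upper limits). At resolution 2 the class took in 114 tdTom+ and 25 tdTom- cells of the myeloid-like class. These held 163 and 19 *Myb* UMIs, against 11 and 4 in the endothelial-like cells as reported, so that value is not of endothelium alone. With doublets kept in, the class also held a sub-cluster with *Fcer1g* among its leading genes, whose part was not tested. Resolution 2 gave 3 in myeloid-like cells, but with 4 tdTom- cells there the values rest on 0 or 1 UMIs, *Hhex* and *Zbtb16* on the floor of 3 counts, and are not to be read. *Myb* in myeloid-like cells went from 1.04 to -0.22 with unspliced UMIs alone (39 and 6 UMIs, interval -1.47 to 1.31; the cause was not tested). At resolution 2 its value of -0.78 is a bound that comes from reading 0 UMIs in 4 tdTom- cells as 3 counts, and is no change of direction. Cosine distance took *Meis1* in megakaryocyte-like cells from -0.67 to -1.86 and *Mllt3* from -2.53 to -1.70. Resolution 2 took *Hhex* in early erythroid-like cells from 2.46 to 1.21. Among single log2 folds under an alternative, 239 stayed within the reported counting interval and 35 moved outside it, beside the 2 of *Myb* above. Among the 239 and 35, 17 changed sign, all of them folds that were reported within 2-fold or from too few UMIs (*Zbtb16* in myeloid-like cells at resolution 2 through the same floor), among them *Mecom*, *Mllt3* and *Zbtb16* in endothelial-like and *Meis1* in later erythroid-like cells, whose directions are therefore not settled. With doublets kept in, no myeloid-like comparison could be made. Depth limited *Mecom* in all blood, *Zbtb16* in tdTom- blood and every value of the 29 myeloid-like and 61 megakaryocyte-like tdTom- cells.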
